A study of Homo sapiens with 19 samples.

Results

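Described here are 10 genes that endothelial cells use at their surface, across H1 human embryonic stem cells (hESCs) that lack parts of polycomb repressive complex 2 (PRC2). They are PECAM1, CDH5, KDR, FLT1, TEK, TIE1, ENG, VWF, ESAM and EMCN, taken by symbol from the 33382 genes in each of 19 RNA-seq files, and all 10 were found once in every file. H1 is an established hESC line. In the study, CRISPR/Cas9 with a targeting vector removed a functional domain of each PRC2 gene, and the transcriptomes of the resulting lines were compared with that of the parental cells.

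The 12 samples of the lines are 2 each of wild-type (WT) H1 cells, of the single knockouts EED-/-, SUZ12-/-, EZH1-/- and EZH2-/-, and of the double knockout EZH2-/-/EZH1-/-. Within a knockout line the labels differ in a clone or passage name. Nothing in the labels says that the WT samples came from separate cultures, so p-values measure only the spread between these samples, which may be technical. The other 7 samples, 1 for each condition, are of H1-EED-/-/EED-OE cells, which carry a lentiviral EED transgene switched on by doxycycline (DOX) and have lost their own EED. They were collected with DOX and on days 8, 12, 16, 20, 24 and 28 after its withdrawal. The title of the DOX sample carries D28, like that of the day 28 sample, and its other labels give no day, so this 1 sample is the reference for every day. The paper describes the histone mark H3K27me3 as lost in the double knockout and in the lines without EED or SUZ12, called PRC2-null here. It describes the mark as retained in WT, EZH1-/- and EZH2-/- H1 cells, at a lower level in the 2 single knockouts than in WT.

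PRC2 places methyl groups on lysine 27 of histone H3 and keeps many developmental genes silent, mostly at promoters rich in CG dinucleotides. Endothelial cells line blood vessels and are joined to one another by VE-cadherin (CDH5), PECAM1 and ESAM. They grow in answer to vascular endothelial growth factor (VEGF) through the receptors KDR and FLT1, and settle under angiopoietins through TEK and its relative TIE1. Endoglin (ENG) is a co-receptor for TGF-beta family ligands, endomucin (EMCN) is a sialomucin of venous and capillary endothelium, and von Willebrand factor (VWF) is made and stored by endothelium and carried to the surface or secreted. KDR is not restricted to endothelium, since it is also used by early mesoderm and is expressed in hESCs.

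Each value is in TPM, a share of the transcripts in a library that is corrected for gene length and brought to a fixed total. The 19 files sum to between 999999.2 and 1000001.0 TPM, so the read depth behind a value is unknown and a 0 is given only as listed at 0. Genes with a TPM above 0 numbered 19117 to 23012 per sample. EED was listed at 14.25 and 22.36 TPM in EED-/- H1 cells and at 17.3 and 21.96 TPM in WT cells, and a gene-level value does not check a knockout that removes one domain. In H1-EED-/-/EED-OE cells, EED was 108.54 TPM with DOX and 12.64 to 31.56 TPM after its withdrawal. The 10 hESC markers POU5F1, NANOG, SOX2, DNMT3B, LIN28A, TDGF1, PODXL, SALL4, L1TD1 and ZFP42 summed to 6596 to 7627 TPM in the 6 samples that retain H3K27me3 and to 331 to 915 TPM in the 6 PRC2-null samples. The PRC2-null samples thus carry hESC labels with low levels of hESC markers.

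The start regions of the growth factor receptors are shown because close relatives behaved differently below, KDR beside FLT1 and TEK beside TIE1. The sequences are RefSeq promoters on GRCh38.p14, read 5′ to 3′ on the gene's strand, from 250 bases upstream of the start to the first base of any annotated exon of the gene. Capitals mark GGAA, the core that ETS family factors such as ERG and FLI1 bind, or its reverse complement TTCC. The table held 6 of the 10 genes, namely KDR, FLT1, TEK, TIE1, ENG and EMCN.
KDR chr4:55125596-55125845 (minus strand): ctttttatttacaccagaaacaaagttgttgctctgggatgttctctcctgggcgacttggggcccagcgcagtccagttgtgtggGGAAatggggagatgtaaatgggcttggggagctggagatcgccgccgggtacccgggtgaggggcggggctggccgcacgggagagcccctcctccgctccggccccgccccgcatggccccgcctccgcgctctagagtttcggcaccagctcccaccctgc
FLT1 chr13:28495146-28495378 (minus strand): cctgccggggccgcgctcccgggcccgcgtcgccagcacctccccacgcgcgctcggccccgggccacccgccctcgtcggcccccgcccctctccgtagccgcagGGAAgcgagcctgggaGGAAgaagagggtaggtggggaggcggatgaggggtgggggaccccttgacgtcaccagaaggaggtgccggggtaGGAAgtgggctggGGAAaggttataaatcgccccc
TEK chr9:27108975-27109140 (plus strand): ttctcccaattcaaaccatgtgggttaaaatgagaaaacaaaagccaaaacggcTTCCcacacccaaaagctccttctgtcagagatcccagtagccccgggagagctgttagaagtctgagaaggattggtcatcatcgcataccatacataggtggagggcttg
TIE1 chr1:43300732-43300981 (plus strand): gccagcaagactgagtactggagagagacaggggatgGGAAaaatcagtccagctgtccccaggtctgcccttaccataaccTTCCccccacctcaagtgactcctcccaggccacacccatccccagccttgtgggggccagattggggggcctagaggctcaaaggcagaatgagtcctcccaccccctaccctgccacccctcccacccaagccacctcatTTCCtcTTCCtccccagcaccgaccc
The 250 bases upstream of the start held 25 CG dinucleotides in FLT1, 17 in KDR, 7 in ENG, 5 in TEK, 2 in EMCN and 1 in TIE1, against a median of 11 over 35114 promoters. The promoters of FLT1 and KDR were thus above the median in CG and the other four below it. On both strands together GGAA was found 4 times in FLT1, TIE1 and EMCN, 3 times in TEK and ENG and 1 time in KDR. At least 1 GGAA stood in 92.7% of all promoters, with a median of 3, so these letters are common and their presence describes the window only. In TEK, 2 of the 3 matches lie in bases not printed, past the start of an annotated exon. TEK had 2 RefSeq promoter entries, and only the first was used. The EMCN window (chr4:100518023-100518272) lies inside the annotated span of the gene given below, not upstream of it.

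In the PRC2-null lines, 8 of the 10 genes were higher than in the lines that retain H3K27me3. PECAM1, CDH5, FLT1, TIE1, ENG, VWF, ESAM and EMCN passed an adjusted p of at most 0.01 and a fold change of at least 3 with limma, while KDR and TEK did not. Of all 19100 genes tested, 13.5% passed in the higher direction and 5.09% in the lower, and 0 of the 10 passed in the lower. The median difference on the log2(TPM + 1) scale was 2.94 for the 10 genes and 0.29 for all genes. In 8 of the 10 every PRC2-null sample lay above every other sample, which held for 24.2% of all genes, and in 0 of the 10 below, which held for 13.3%. Of these 8, PECAM1, CDH5, VWF, ESAM and EMCN passed the filter through the PRC2-null samples only, so that they had to differ to be tested. Of the 5 genes that would pass on the retaining samples alone, FLT1, TIE1 and ENG were called and KDR and TEK were not. The same 8 were called after leaving out any 1 of the 12 samples. Fewer cells of a type and less RNA per cell cannot be told apart in bulk samples, so a level is that of the whole culture.

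**Figure D1:**
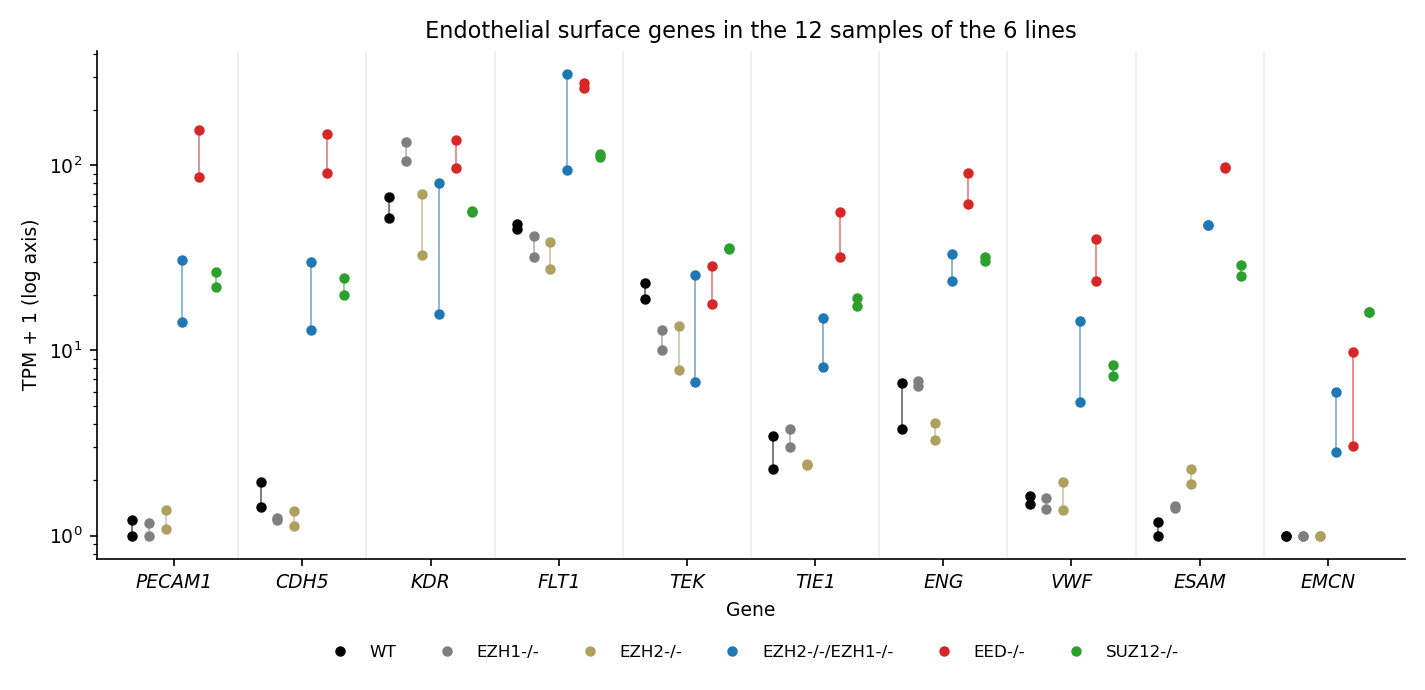
TPM + 1 on a log axis for the 10 genes (x axis) in the 12 samples, coloured by line, with a bar joining the 2 samples of a line. PECAM1, CDH5, VWF, ESAM and EMCN lie at or below 1.28 TPM in WT, EZH1-/- and EZH2-/- H1 cells, whereas KDR and TEK overlap between the sets.

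The junction genes went from near 0 to high levels. PECAM1 (chr17:64319415-64413776, minus strand, GRCh38), an adhesion molecule of endothelium, platelets and leukocytes, was 0.21 and 0 TPM in WT, 0 and 0.17 in EZH1-/- and 0.09 and 0.37 in EZH2-/- H1 cells. It was 153.49 and 85.21 TPM in EED-/-, 25.52 and 20.98 in SUZ12-/- and 29.83 and 13.17 in EZH2-/-/EZH1-/- H1 cells. The sets did not overlap, EED-/- stood above the other two PRC2-null lines, and those overlapped each other. The pooled difference was 5.10 (SE 0.23) on the log2(TPM + 1) scale with an adjusted p of 1.79e-08.

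CDH5 (chr16:66366690-66404784, plus strand), the cadherin that holds endothelial junctions together, was 0.95 and 0.43 TPM in WT, 0.21 and 0.24 in EZH1-/- and 0.36 and 0.13 in EZH2-/- H1 cells. The PRC2-null values were 145.93 and 90.07 in EED-/-, 23.66 and 19.04 in SUZ12-/- and 29.17 and 11.89 TPM in EZH2-/-/EZH1-/- H1 cells. Line by line this was nearly the order of PECAM1, with a pooled difference of 4.76 (SE 0.23, adjusted p = 2.95e-08).

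ESAM (chr11:124752583-124762290, minus strand), a tight junction protein of endothelium and platelets, had PRC2-null replicates that lay close together. WT cells had 0 and 0.19 TPM, EZH1-/- 0.41 and 0.44, and EZH2-/- 0.90 and 1.28. EED-/- H1 cells had 96.35 and 95.63 TPM, EZH2-/-/EZH1-/- 46.43 and 46.37, and SUZ12-/- 27.81 and 24.34. The PRC2-null lines did not overlap one another for this gene, and the pooled difference was 5.08 (SE 0.14, adjusted p = 7.6e-10).

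EMCN (chr4:100395341-100880126, minus strand) was listed at 0 in all 6 samples that retain H3K27me3. It was 15.03 and 15.12 TPM in SUZ12-/-, 2.05 and 8.81 in EED-/- and 4.96 and 1.83 in EZH2-/-/EZH1-/- H1 cells. SUZ12-/- was thus the highest line, and the other two overlapped. The pooled test gave an adjusted p of 6.01e-06, and no fold is given against values listed at 0.

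Both VEGF receptors were already expressed in WT cells, and they parted in the PRC2-null lines. FLT1 (chr13:28300346-28495145, minus strand), which binds VEGFA and PGF and is also made as a soluble form that gene-level values do not separate, was 44.07 and 47.35 TPM in WT, 31.05 and 40.45 in EZH1-/- and 37.29 and 26.41 in EZH2-/- H1 cells. It was 258.77 and 276.03 TPM in EED-/-, 310.7 and 93.53 in EZH2-/-/EZH1-/- and 113.7 and 109.57 in SUZ12-/- H1 cells. The sets did not overlap, and the 2 samples of EZH2-/-/EZH1-/- cells enclosed those of both other PRC2-null lines. The pooled difference was 2.19 (SE 0.24, adjusted p = 1.45e-05).

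KDR (chr4:55078481-55125595, minus strand), the main signalling receptor for VEGFA, was 50.88 and 66.09 TPM in WT, 104.8 and 132.98 in EZH1-/- and 68.66 and 31.57 in EZH2-/- H1 cells. In the PRC2-null lines it was 135.19 and 95.5 TPM in EED-/-, 55.82 and 55.16 in SUZ12-/- and 79.59 and 14.69 in EZH2-/-/EZH1-/- H1 cells. The highest values were in EZH1-/- and EED-/- cells, which overlapped, and the ranges of the 2 sets covered each other. The pooled difference was -0.18 on the log2 scale, with a 95% interval of -0.95 to 0.59 and an adjusted p of 0.661. A 3-fold shift of this mean lay outside the interval, but the interval rests on the spread within lines and leaves out that between lines. Line means ran from 47.1 to 115 TPM in the PRC2-null lines and from 50.1 to 119 TPM in the others. A 3-fold shift is thus not excluded beyond these lines. For single lines against WT, the 95% interval held a 3-fold shift in EED-/- (-0.37 to 2.29) and EZH2-/-/EZH1-/- cells (-2.06 to 0.60). It did not in SUZ12-/- cells (-1.39 to 1.27).

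The angiopoietin receptors parted in the same way. TIE1 (chr1:43300982-43323108, plus strand), which modulates TEK signalling and is largely confined to endothelium, was 2.44 and 1.29 TPM in WT, 2.00 and 2.76 in EZH1-/- and 1.42 and 1.43 in EZH2-/- H1 cells. It was 54.62 and 31.13 TPM in EED-/-, 18.2 and 16.35 in SUZ12-/- and 13.94 and 7.14 in EZH2-/-/EZH1-/- H1 cells. The PRC2-null lines overlapped neither one another nor the other lines, and the pooled difference was 2.85 (SE 0.21, adjusted p = 6.9e-07).

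TEK (chr9:27109141-27230174, plus strand), the receptor for ANGPT1 and ANGPT2, was 17.97 and 22.1 TPM in WT, 11.95 and 9.01 in EZH1-/- and 6.83 and 12.6 in EZH2-/- H1 cells. SUZ12-/- H1 cells had 34.09 and 34.61 TPM, above every other sample of the lines. EED-/- cells had 16.74 and 27.46 TPM and EZH2-/-/EZH1-/- cells 24.5 and 5.75, both overlapping WT. The pooled difference was 0.69 (95% interval 0.03 to 1.36, adjusted p = 0.0604). Against WT, the 95% interval held a 3-fold shift in SUZ12-/- (-0.40 to 1.91) and EZH2-/-/EZH1-/- cells (-1.83 to 0.48). In EED-/- cells it did not (-1.05 to 1.25).

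ENG (chr9:127815013-127854658, minus strand), the co-receptor, was 5.7 and 2.77 TPM in WT, 5.85 and 5.41 in EZH1-/- and 3.07 and 2.29 in EZH2-/- H1 cells. It was 89.59 and 61.11 TPM in EED-/-, 29.36 and 31.01 in SUZ12-/- and 32.17 and 22.78 in EZH2-/-/EZH1-/- H1 cells, with EED-/- apart and the other two overlapping. The pooled difference was 3.02 (SE 0.19, adjusted p = 1.5e-07).

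VWF (chr12:5948877-6124770, minus strand), the glycoprotein that binds platelets, was below 1 TPM in all 6 samples that retain H3K27me3, from 0.38 to 0.94 with a median of 0.54. It was 39.14 and 22.84 TPM in EED-/-, 13.37 and 4.25 in EZH2-/-/EZH1-/- and 7.36 and 6.24 in SUZ12-/- H1 cells. The latter pair of lines overlapped, and the pooled difference was 3.03 (SE 0.25, adjusted p = 1.61e-06).

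All 10 genes passed the filter of at least 1 TPM in at least 2 of the 12 samples. PECAM1, CDH5, VWF, ESAM and EMCN passed it through the PRC2-null samples only, so that these 5 had to differ to be tested. KDR, FLT1, TEK, TIE1 and ENG would have passed on the retaining samples alone. The library kit did not mark strand, and a gene on the opposite strand overlaps KDR, ENG and ESAM. Those partners reached at most 0.71, 1.92 and 1.42 TPM in any of the 19 samples. A further one overlaps EMCN and was not analysed here.

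Each line was then set against WT, to show whether loss of EZH1 or EZH2 alone was enough to move these genes. In EZH1-/- H1 cells 0 of the 10 were called by limma and 0 had an unadjusted p under 0.05, where 0.0576% of all genes were called higher and 0.0419% lower. Differences ran from -0.88 for TEK (95% interval -2.03 to 0.27) to 1.01 for KDR (-0.32 to 2.34), and both intervals held a 3-fold shift. In EZH2-/- H1 cells 0 of the 10 were called, as were 0% of all genes in either direction, and 1 had an unadjusted p under 0.05. That gene was ESAM, with a difference of 0.93 (SE 0.24, adjusted p = 0.383), and its 2 values of 0.90 and 1.28 TPM both lay above the 2 of WT. For TEK (-2.17 to 0.13) and KDR (-1.64 to 1.02) in EZH2-/- cells the 95% interval held a 3-fold shift.

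In EED-/- H1 cells 8 of the 10 rose against WT, with 16.2% of all genes called higher and 6.09% lower. The differences of the 8 ran from 2.45 for EMCN to 6.71 for PECAM1 (SE 0.40, adjusted p = 5.45e-07), and ESAM followed at 6.47 (SE 0.24, adjusted p = 3.76e-08). KDR at 0.96 (adjusted p = 0.206) and TEK at 0.10 (adjusted p = 0.888) were not called. EMCN lost its call when either WT sample or EED-/- replicate 2 was left out, at adjusted p between 0.0102 and 0.0141.

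In SUZ12-/- H1 cells 7 of the 10 rose, with 14.5% of all genes called higher and 5.21% lower. ESAM rose by 4.63, PECAM1 by 4.46 and EMCN by 4.01 on the log2(TPM + 1) scale. FLT1 missed both thresholds at 1.27 (SE 0.42, adjusted p = 0.0293), although its SUZ12-/- values lay above both WT values. KDR at -0.06 and TEK at 0.76 were not called. VWF lost its call without either WT sample or without SUZ12-/- replicate 1, at adjusted p between 0.0107 and 0.0144.

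In EZH2-/-/EZH1-/- H1 cells 8 of the 10 rose, with 11.6% of all genes called higher and 5.66% lower. ESAM rose by 5.44, PECAM1 by 4.25, CDH5 by 3.56, ENG by 2.48 and VWF by 2.48, whereas KDR at -0.73 and TEK at -0.67 were not called. Replicate 1 of this line was the higher one for all 10 genes. Without replicate 1, FLT1 (1.02), TIE1 (1.54) and EMCN (adjusted p = 0.042) lost their calls, and KDR (-1.91, adjusted p = 0.00328) and TEK (-1.63, adjusted p = 0.00608) were called lower, where 11.3% of all genes were called higher and 8.55% lower. Without WT replicate 2, 4 of the 10 were called higher beside 9.1% of all genes, and with only the 4 samples of the 2 lines in the fit, 3 were, beside 8.02%.

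**Figure D2:**
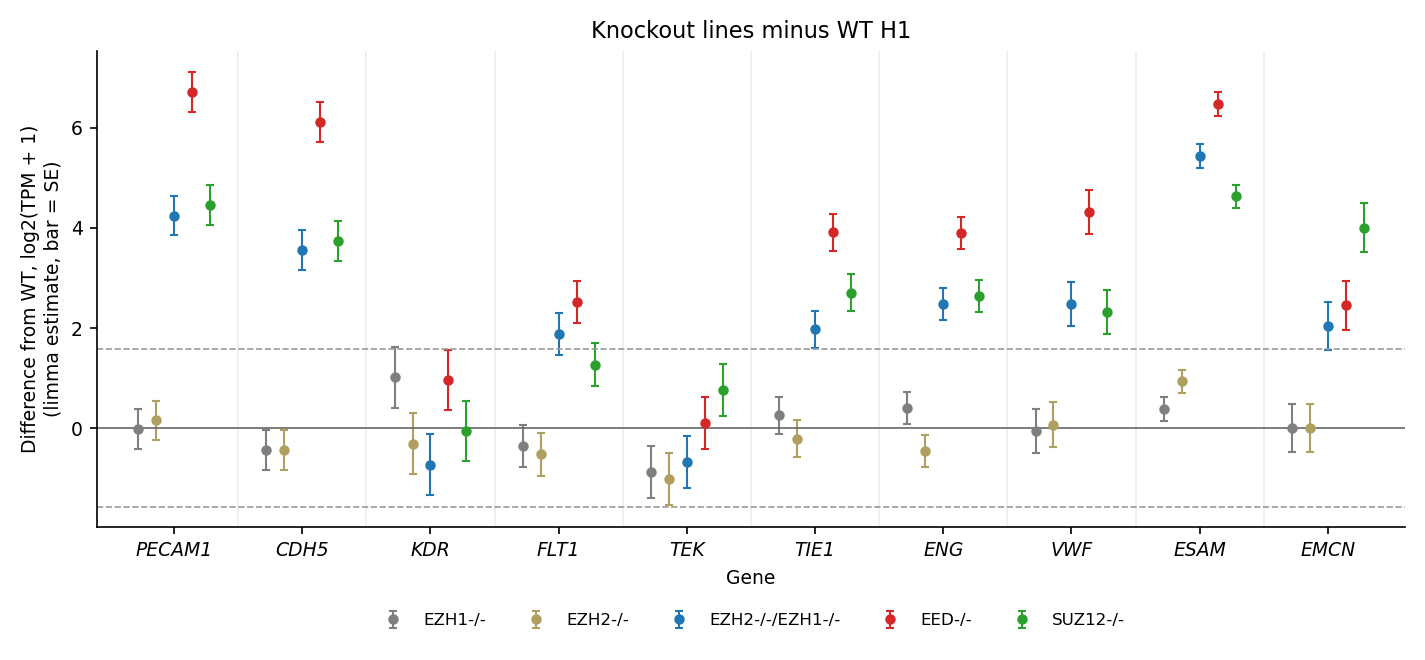
Difference from WT in log2(TPM + 1) for each gene (x axis) and knockout line, as the limma estimate with its SE as bar, 2 samples per line, dashed lines at a 3-fold change. EED-/- H1 cells reach 6.71 for PECAM1, and estimates in EZH1-/- and EZH2-/- H1 cells stay between -1.02 and 1.01. Estimates for KDR and TEK lie inside the dashed lines in all 5 lines. The SE bar of KDR in EZH1-/- cells crosses the upper one, and several of their 95% intervals, not drawn, hold a 3-fold change.

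The PRC2-null lines were also compared with one another. Against EED-/- cells, SUZ12-/- cells were lower for 4 of the 10 genes, where 2.58% of all genes were called lower and 3.54% higher. The 4 were CDH5 at -2.38 (SE 0.40, adjusted p = 0.00213), PECAM1 at -2.26 (SE 0.40, adjusted p = 0.00272), VWF at -1.99 (SE 0.44, adjusted p = 0.00984) and ESAM at -1.84 (SE 0.24, adjusted p = 4.22e-04). EMCN went the other way, at 1.56 (SE 0.49, adjusted p = 0.047), and was not called. This count rested on single samples: it was 1 without EED-/- replicate 1 or SUZ12-/- replicate 1, 0 without SUZ12-/- replicate 2, and 0 with a pseudocount of 0.1, with all 4 differences still negative. In these refits 1.42, 0.777, 0.76 and 1.97% of all genes were called lower, in that order.

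EZH2-/-/EZH1-/- against EED-/- cells gave 0 of 10 called by limma, with 0.0314% of all genes called higher and 0.0576% lower. All 10 differences were negative, from -2.55 for CDH5 to -0.41 for EMCN, and 7 had an unadjusted p under 0.05. Without EZH2-/-/EZH1-/- replicate 1, PECAM1, CDH5, KDR, TIE1 and VWF, 5 of the 10, were called lower, where the share of all genes called lower was 3.35% and of those called higher 0.533%. SUZ12-/- against EZH2-/-/EZH1-/- cells also gave 0 of 10 called by limma, where 3.32% of all genes were called higher and 1.14% lower, and 3 had an unadjusted p under 0.05. Those were EMCN at 1.97 (95% interval 0.89 to 3.05), TEK at 1.43 (0.28 to 2.58) and ESAM at -0.81 (-1.34 to -0.29). Without EZH2-/-/EZH1-/- replicate 1, KDR, TEK and EMCN were called higher in SUZ12-/- cells, as were 6.73% of all genes.

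The 10 genes were also followed after withdrawal of DOX from H1-EED-/-/EED-OE cells. KDR, FLT1, ENG, TEK and TIE1 were already above 1 TPM with DOX. With 1 sample per time point there was no test, and a gene is counted where its TPM + 1 was more than 3-fold that of the DOX sample. The count was 1 of 10 on days 8, 12 and 16, 3 on day 20, 10 on day 24 and 9 on day 28, and 0 were past 3-fold lower on any day. Among all 19011 genes with at least 1 TPM in any of these samples, 2.78, 2.84, 3.81, 9.07, 12.9 and 17.9% were past 3-fold higher on the 6 days in order, and 0.589, 0.4, 0.894, 2.69, 4.67 and 5.61% past 3-fold lower. The median difference of the 10 genes was 0.60 on day 20, 4.01 on day 24 and 3.25 on day 28, beside 0.16, 0.18 and 0.40 for all genes. With the mean of the 2 WT samples as reference instead, 1, 0, 1, 2, 10 and 7 of the 10 were past 3-fold higher on the 6 days in order, beside 3.01, 2.67, 2.5, 7.03, 10.6 and 14.1% of all genes. TEK, which was higher in WT cells than in the DOX sample, was then past 3-fold lower on days 8, 12, 16 and 20, alone among the 10, where 1.15, 0.652, 1.17 and 2.68% of all genes were.

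KDR was past 3-fold on days 12 and 16, alone among the 10, and with WT as reference on day 16 but not on day 12. From 38.46 TPM with DOX it was 64.26, 154.14, 191.5, 145.6, 327.98 and 126.22 TPM on days 8, 12, 16, 20, 24 and 28. ESAM was 0.13 TPM with DOX and then 2.94, 1.16, 1.47, 24.78, 137.98 and 190 TPM, so that it was past 3-fold on day 8, below that on days 12 and 16, and high from day 20. VWF was 0.57 TPM with DOX and 0.85, 0.71, 0.23, 9.1, 8.44 and 11 TPM thereafter. ESAM and VWF thus shared the step at day 20, and KDR stood above its DOX level before it.

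PECAM1 and CDH5 were past 3-fold of TPM + 1 after these, from day 24. PECAM1 was 0.1 TPM with DOX, and with a pseudocount of 0.1 it was already past 3-fold on day 20. PECAM1 was at most 0.48 TPM through day 16, 1.40 on day 20, 32.16 on day 24 and 50.4 on day 28. CDH5 was at most 0.83 TPM through day 16, 1.36 on day 20, 36.39 on day 24 and 88.58 on day 28. ENG kept between 5.15 and 7.33 TPM from the DOX sample to day 20 and was then 37.83 and 63.49 TPM, and TIE1 went from 0.83 on day 20 to 23.2 and 31.81 TPM. PECAM1, CDH5, ENG and TIE1 had their highest value on day 28, as did VWF and ESAM.

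FLT1, TEK and EMCN had their highest value on day 24, as did KDR. FLT1 was 16.91 to 36.54 TPM from the DOX sample to day 20, 799.32 on day 24 and 314.61 on day 28. TEK was 2.41 to 4.43 TPM up to day 20, 131.38 on day 24 and 28.01 on day 28. EMCN was listed at 0 up to day 20 and was 8.79 TPM on day 24 and 0.42 on day 28. These genes thus fell back between the last 2 samples, while the other six did not, and a single sample per day cannot tell time from the difference between cultures.

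**Figure D3:**
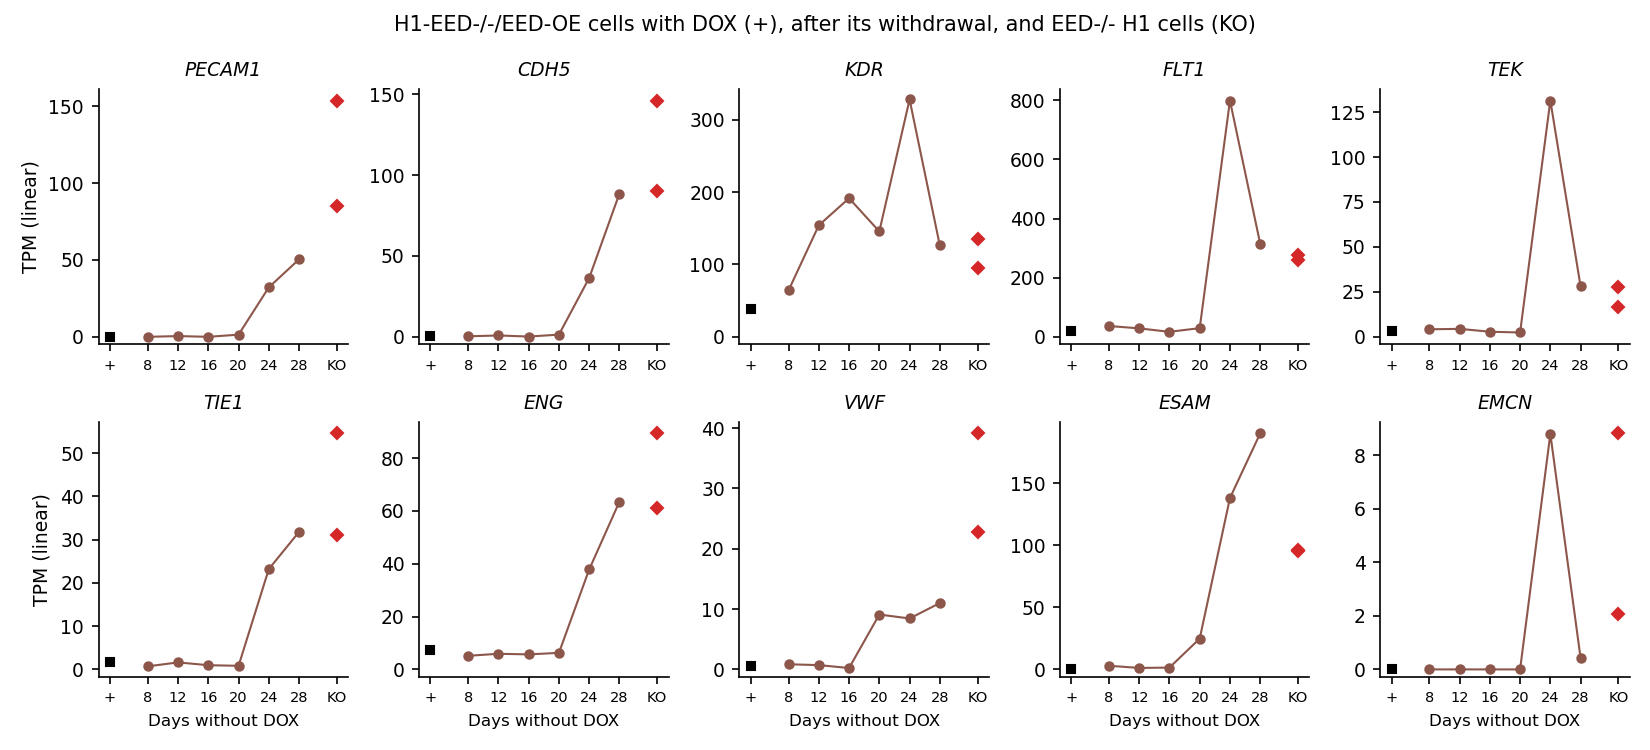
TPM on a linear axis for each gene, with DOX (+, black square), on the day after DOX withdrawal (brown circles, 1 sample each) and in the 2 samples of EED-/- H1 cells (KO, red diamonds). PECAM1, CDH5, TIE1 and ENG stay at or below 7.33 TPM through day 20 and reach their highest value on day 28, FLT1, TEK and EMCN peak on day 24, and KDR is raised from day 12.

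Side by side with EED-/- H1 cells, the day 28 value lay between the 2 knockout samples for KDR, TIE1 and ENG, 3 of the 10. It was above both for ESAM (190 against 95.63 and 96.35 TPM), FLT1 and TEK and below both for PECAM1 (50.4 against 85.21 and 153.49 TPM), CDH5, VWF and EMCN. The levels of the whole culture changed over the same days, since the 10 hESC markers summed to 5303 to 6947 TPM up to day 16, 3043 on day 20 and 695 to 1115 on days 24 and 28. The part of that change in the results was not tested.

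Over all 19 samples the genes tracked one another to different degrees, given as Pearson's r of log2(TPM + 1), which is set in part by the PRC2-null samples and carries no test. PECAM1 and CDH5 had an r of 0.994, and PECAM1 had 0.973 with ENG, 0.972 with TIE1, 0.786 with EMCN and 0.631 with TEK. KDR had between 0.022 (EMCN) and 0.258 (FLT1) with the other nine. Among 19721 genes, those outside the 10 whose pattern was nearest were RHOJ for PECAM1 (0.992) and CDH5 (0.991), MMRN2 for TIE1 (0.981), BTBD19 for ENG (0.981) and ECM1 for ESAM (0.988). VWF was nearest to HOXA10-AS (0.975), EMCN to COLEC10 (0.975) and FLT1 to MEF2C (0.964). For TEK and KDR the nearest genes were less alike, CALCRL at 0.837 and PHF8 at 0.875.

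The ligands and co-receptors around these receptors were higher in the PRC2-null lines for the most part. Of 17 genes of the VEGF and angiopoietin pathway, 15 were tested, and 12 were higher and 0 lower in the PRC2-null lines. Their median difference was 2.59, and 13.5% of all genes were called higher and 5.09% lower. Of the 17 genes, 6 were under 1 TPM in every retaining sample. Those of them that were tested passed the filter through the PRC2-null samples only and could not be called lower. ANGPT2, the angiopoietin that loosens vessels, had the largest difference at 4.15 (SE 0.18), from at most 0.09 TPM in the retaining samples to 4.42 to 91.77 TPM in the PRC2-null samples. The VEGF co-receptors NRP1 (3.82, SE 0.19) and NRP2 (3.30, SE 0.15) rose, as did the FLT1 ligand PGF (3.19, SE 0.31). So did ACVRL1, the endothelial receptor that works with ENG (3.82, SE 0.25), and APLNR, the apelin receptor (3.60, SE 0.16). VEGFA at 1.06, VEGFB at 1.16 and the lymphatic receptor FLT4 at -0.30 were not called.

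The pathway also differed between the null lines. Against EED-/- cells, SUZ12-/- cells were lower for 5 of the 15 genes (APLN, ANGPT2, FLT4, NRP2 and PTPRB) and higher for 1, VEGFC, beside 2.58% of all genes called lower and 3.54% higher. The number lower fell when EED-/- replicate 1, SUZ12-/- replicate 1 or SUZ12-/- replicate 2 was left out. ANGPT2 was 58.28 to 91.77 TPM in EED-/- and 4.42 to 5.32 in SUZ12-/- H1 cells, a difference of -3.66 (SE 0.31, adjusted p = 2.64e-05). In the time course APLNR was at 387.87 TPM on day 20, before the day 24 levels of PECAM1 and CDH5. It was 69.73 to 95.41 TPM on days 24 and 28, against at most 12.09 up to day 16. Markers of lateral and early mesoderm, listed below, summed to 1114 TPM on day 20 and to 365 to 530 TPM on days 24 and 28. The 30 other endothelial genes listed below summed to 263 TPM on day 20 and to 1886 to 2571 TPM thereafter. The part of mesoderm in the APLNR level was not tested. NRP1 was at most 4 TPM up to day 16, 31.92 on day 20 and 77.49 to 99.77 TPM thereafter.

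Of 18 transcription factors of endothelium, 15 were higher and 0 lower in the PRC2-null lines, with a median of 2.80. Of all genes 13.5% were called higher and 5.09% lower. For 8 of the 18 every retaining sample was under 1 TPM, so these passed the filter through the PRC2-null samples only and could not be called lower. NR2F2, which within endothelium marks veins, had 5.66 (SE 0.17). SOX17, of arterial endothelium and also in the endoderm list, had 4.98 (SE 0.18), and GATA2 3.94 (SE 0.23). The ETS factor FLI1 (3.91, SE 0.22), the Notch target HEY1 (3.69, SE 0.18) and HHEX (3.63, SE 0.17) followed. ETS1 at 0.66, ETV2 at -0.10 and HEY2 at -0.94 were not called. ETV2, which acts briefly early in endothelial development, was 0.61 to 4.3 TPM in the PRC2-null and 1.11 to 2.87 in the retaining samples, and 5.07 on day 20. SOX17 stood at 126.35 TPM and ERG at 0.29 TPM on that day, and ERG, an ETS factor of mature endothelium, was 22.65 to 24.64 TPM on days 24 and 28.

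Of 30 other endothelial genes, 29 were tested, and 22 were higher and 0 lower, with a median of 2.96, beside 13.5% and 5.09% of all genes. For 14 of the 30 every retaining sample was under 1 TPM. Those of them that were tested passed the filter through the PRC2-null samples only and could not be called lower. PLVAP, which forms the diaphragms of endothelial pores, had 6.21 (SE 0.25), TM4SF1 5.57 (SE 0.18), CD34, shared by endothelium and blood progenitors, 5.55 (SE 0.21) and thrombomodulin (THBD) 4.53 (SE 0.16). GNG11 had 4.33 (SE 0.16) and CLEC14A 4.09 (SE 0.19). Against EED-/- cells, SUZ12-/- cells were lower for 9 of the 29 and higher for 0, ESM1 (-5.15, SE 0.34) and ROBO4 (-3.42, SE 0.35) having the largest differences. That count, beside 2.58% of all genes called lower, rested on single samples, and rose or fell with the sample left out. EZH2-/-/EZH1-/- against EED-/- cells gave 4 lower (CD93, DLL4, LYVE1 and ESM1) and 0 higher, beside 0.0576% of all genes called lower. It too rested on single samples, and rose or fell with the sample left out. The summed level of the 30 was 1599 to 2072 TPM in EED-/-, 870 to 893 in SUZ12-/- and 780 to 1002 in EZH2-/-/EZH1-/- H1 cells, and 220 to 270 TPM in the retaining samples.

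**Figure D4:**
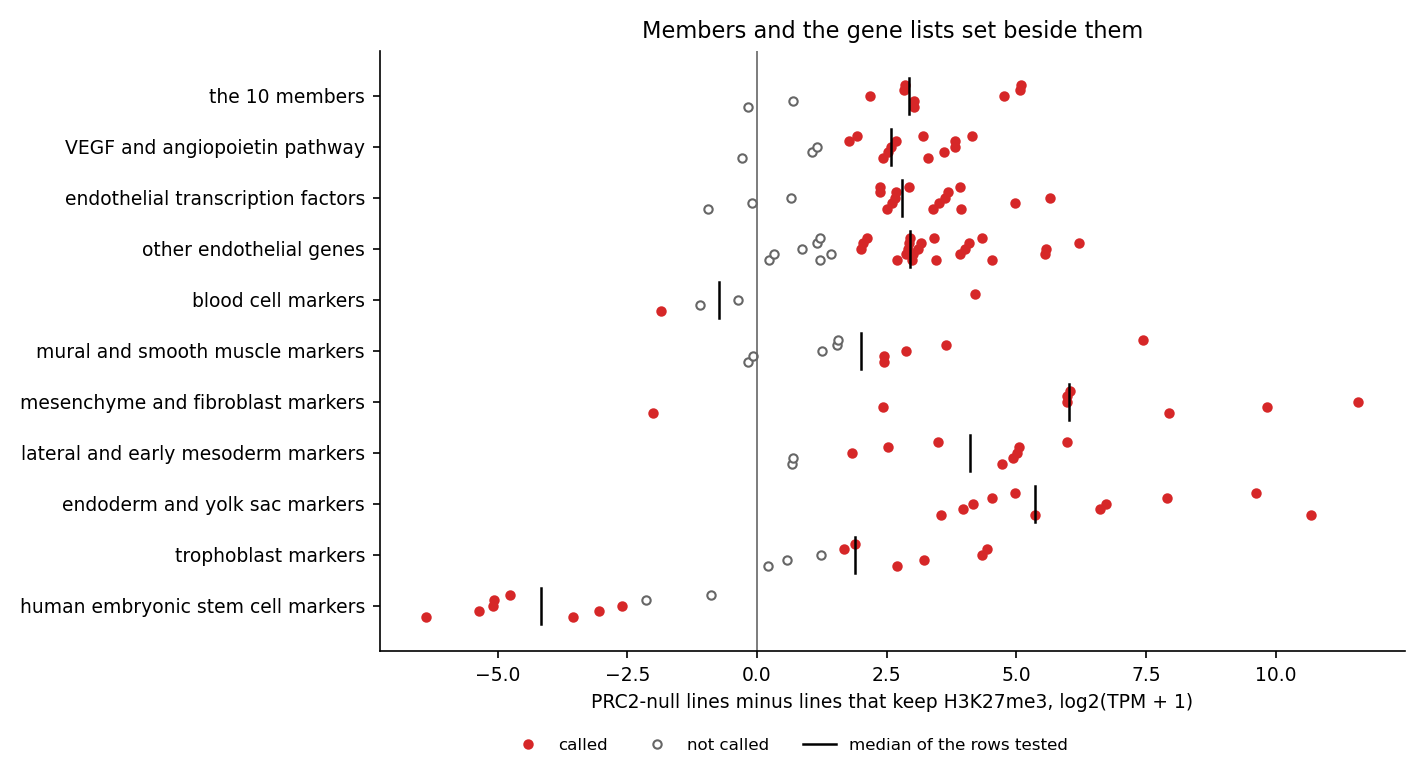
Difference between the PRC2-null lines and the lines that retain H3K27me3 in log2(TPM + 1) (x axis), 1 point per gene tested, for the 10 endothelial surface genes and for each gene list (y axis), red where called and open where not, with the median as a bar. The 3 endothelial lists and the 10 genes have medians between 2.59 and 2.96, and mesenchyme and endoderm genes have medians of 6.01 and 5.37. Genes under 1 TPM in every retaining sample are shown only where the PRC2-null samples passed the filter.

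Markers of other cell types moved in the same samples, where 13.5% of all genes were called higher and 5.09% lower. Of 8 mesenchyme and fibroblast genes 7 were higher and 1, THY1, was lower, and their sum was 4329 to 24256 TPM in the PRC2-null and 407 to 744 in the retaining samples. All 11 endoderm and yolk sac genes were higher (1533 to 22827 against 5.33 to 15.7 TPM), as were 8 of 10 genes of lateral and early mesoderm (182 to 500 against 1.45 to 3.28 TPM). Of 10 rows for 9 mural and smooth muscle genes 5 were higher (1441 to 5450 against 233 to 684 TPM), and of 9 trophoblast genes tested 6 were (156 to 437 against 16.7 to 26.4 TPM). Of the hESC markers 8 of 10 were lower. Every retaining sample was under 1 TPM for 9 of the 11 endoderm and 9 of the 10 mesoderm genes. The same held for 8 of the 10 trophoblast and 2 of the 8 mesenchyme genes. Those of them that were tested passed the filter through the PRC2-null samples only and could not be called lower. The part of these other cell types in the endothelial result was not tested.

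Of 16 blood markers 4 passed the filter, and 1, RUNX1, was higher and 1, ITGA2B, lower, beside 13.5% and 5.09% of all genes. RUNX1, which blood-forming endothelium also uses, was 12.1 to 52.91 TPM in the PRC2-null and 0.1 to 1.12 in the retaining samples. PTPRC was at most 1.46 TPM and SPI1 at most 1.21 in the PRC2-null samples, and HBE1, HBZ, HBG1 and HBG2 at most 1.61 TPM. The part of blood cells in the result was not tested. In SUZ12-/- H1 cells, where PECAM1, CDH5 and ESAM were lower than in EED-/- cells, the mesenchyme sum was 23945 to 24256 TPM against 7700 to 12366 in EED-/- cells, and the endoderm sum 21946 to 22827 against 1533 to 4133 TPM. As TPM are shares of a fixed total, the part of those sums in the difference was not tested.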

How the data were processed

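RNA-seq was measured in 19 samples of H1 hESCs. Per the paper, TruSeq libraries were mapped to GRCh38 mRNA with Bowtie and quantified with RSEM, tools that the submitters' processing notes also name. The authors deposited TPM per gene, which keep no depth, so precision rests on the replicates. The edgeR test that the authors used needs counts and was not run. Here, log2(TPM + 1) was fitted with limma 3.58.1 in R 4.3.3 over the 12 samples of the 6 lines, a mean per line, eBayes with trend and robust, for the 19100 genes with at least 1 TPM in at least 2 samples. A call needed a p of at most 0.01 after Benjamini-Hochberg adjustment and a fold of at least 3, the thresholds of the study. Differences on this scale understate changes of low genes. The pooled contrast takes the mean of 3 PRC2-null lines minus that of the 3 others. Its SE, interval and p rest on the spread between the 2 samples of a line, not on that between lines. The script was tested on simulated data.

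The 10 genes and all lists were chosen with earlier results of these data known. The values of 1 listed blood marker are not reported here. From each list, counts and at most 6 genes of largest pooled difference are given, plus genes a result needed, and for each of the 10 the nearest gene by Pearson's r. Files were joined by Ensembl identifier. Gene coordinates are from GENCODE release 44. Alternatives were a pseudocount of 0.1, no filter, scaling by median ratios, an adjusted p of at most 0.05 without a fold cutoff, plain eBayes, fits of the compared lines alone, leaving out each sample and, for the time course, WT as reference and a stricter filter. Python 3.11.15 with numpy 2.4.6, pandas 2.3.3 and matplotlib 3.10.9 was used for the rest.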

Additional observations from a re-analysis of the deposited data

Results flagged for a closer look

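Differences between SUZ12-/- and EED-/- H1 cells passed the test of the difference itself by limma for 4 genes. On the log2(TPM + 1) scale they were -2.26 for PECAM1, -2.38 for CDH5, -1.99 for VWF and -1.84 for ESAM, all lower in SUZ12-/- cells, with both SUZ12-/- samples below both EED-/- samples. Their calls depended on single samples, as given above.

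CDH5 in WT replicate 1, at 0.95 TPM, stood apart from the other 5 samples that retain H3K27me3 by a Dixon gap test at the 95% level. It was the only one of 19 sets of 6 samples to do so, where chance gives about 1 in 20, and EMCN in the retaining samples, listed at 0 in all 6, could not be tested.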

How the results depend on the processing

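The 8 genes called in the pooled comparison stayed 8 under leaving out any sample, and no call of that comparison was lost under the other alternatives. Scaling by median ratios moved the median difference of all genes from 0.29 to 0.07 in the pooled comparison and from 0.36 to 0.06 for EED-/- against WT, and TEK in the latter turned to -0.27. No other direction turned in the limma comparisons of the PRC2-null lines outside the left-out samples. In the time course WT as reference turned some, ENG on day 8 being -0.44 against the DOX sample and 0.29 against WT.

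For EZH2-/-/EZH1-/- against WT the count of calls was 3 with only the compared lines in the fit, and 4 to 8 over left-out samples. For SUZ12-/- against EED-/- cells it was 0 with a pseudocount of 0.1, 7 at an adjusted p of at most 0.05 without a fold cutoff, and 0 to 4 over left-out samples. At that looser threshold it was 3 for EZH2-/-/EZH1-/- against EED-/- and 2 for SUZ12-/- against EZH2-/-/EZH1-/- cells, with 0 to 5 and 0 to 3 over left-out samples. For SUZ12-/- against EED-/- cells the 7 were 6 lower and 1 higher, beside 10.4% and 9.2% of all genes. For EZH2-/-/EZH1-/- against EED-/- cells the 3 were all lower, beside 0.565%. For SUZ12-/- against EZH2-/-/EZH1-/- cells the 2 were 1 lower and 1 higher, beside 5.88% and 8.4%. After DOX withdrawal the count in either direction was 2 on days 12 and 16 and 4 on day 20 with a pseudocount of 0.1, PECAM1 being the gene added on day 20. With WT as reference it was 2 on days 8 and 16, in each case 1 higher and 1 lower, and on day 12 the 1 gene counted was TEK, lower, in place of KDR, higher. The causes were not tested.

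Leaving out single samples turned differences that were not called, given here as lowest to highest. Against WT these were TEK in EED-/- (-0.24 to 0.44, with -0.04 without WT replicate 1), KDR in SUZ12-/- (-0.25 to 0.12), and KDR (-1.91 to 0.45) and TEK (-1.63 to 0.28) in EZH2-/-/EZH1-/- cells, whose lowest values were called. Pooled KDR was -0.57 to 0.21, with 0.0031 without EZH2-/- replicate 1. For EZH2-/-/EZH1-/- against EED-/- cells FLT1 was -1.50 to 0.22, TEK -1.74 to 0.18 and EMCN -1.26 to 0.43, with 0.12 without EZH2-/-/EZH1-/- replicate 2. For SUZ12-/- against EZH2-/-/EZH1-/- cells PECAM1 was -0.35 to 0.77, CDH5 -0.44 to 0.79, KDR -0.51 to 1.85 (the highest called), FLT1 -1.47 to 0.25, ENG -0.090 to 0.39 and VWF -0.89 to 0.57.

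No paired analysis was possible because the labels give clone or passage names and no shared replicate numbers. Depth is unknown, so values near 0 TPM have no detection limit.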
